A study of Mus musculus with 3 samples.

Results

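Expression of 40 cell cycle and DNA replication genes was examined in cultures of developing mouse T cells and of their stromal feeder cells, with and without phospho-ascorbate (pAsc), a stable form of vitamin C. The 40 genes were taken by the gene name printed on the array, and their 63 probes were read among 41174 probes for 27729 genes. The rule uses gene names and no measured value. They fell into 16 genes of DNA replication and its E2F activators, 9 of mitosis, 11 cyclins and cyclin-dependent kinases and 4 inhibitors of those kinases, and 23 of them had 1 probe while 17 had several.

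RNA came from 3 pairs of cultures, each pair hybridised to 1 array of 2 colours with pAsc-treated RNA in Cy5 and untreated RNA in Cy3. Stromal cells were the OP9-DL1 line (strain B6-C3Hf1, given in the labels as osteoblast), kept in continuous culture and exposed to 800 µM pAsc for 24 h, against the same line in MEM medium. For the T lineage cells, progenitors from C57BL/6 bone marrow were cultured over OP9-DL1 cells together with Flt3L and IL7. pAsc at 800 µM was present for the final 72 h of 17 days or for the final 24 h of 14 days, against cultures of the same age in MEM. Every T cell culture therefore shared both cytokines and the stromal line with its Notch ligand, and stromal cells were removed only by a 30 min adherence step. OP9-DL1 is a single cell line, and each T cell sample is RNA of a mixed culture.

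There was 1 array per comparison, with no replicate and no dye swap, so no test is given and a dye effect of a probe cannot be told apart from the treatment. The log2 ratio is treated over untreated within an array, and the log2 level is the scaled signal of 1 channel, comparable between samples for the same probe but not between genes. A gene was called at a difference of at least 2-fold, and 1.5-fold served as a second rule of size. As a measure of precision, 10 spots of the same probe differed by a median SD of 0.04, 0.05 and 0.04 (log2) for members on the stromal, 72 h and 24 h arrays. Different probes of a member differed more, with an SD pooled over members of 0.19, 0.18 and 0.14. All 16 T lineage markers were above background in each T cell channel, while 12 of 16 were not in each stromal channel. Stromal markers were also read in T cell RNA, where 14 to 16 of 16 were above background.

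The members belong to the machinery that copies and divides a cell's genome. E2F factors switch on the replication genes once cyclin D with Cdk4 or Cdk6, and then cyclin E with Cdk2, have inactivated the retinoblastoma proteins, while inhibitors of the Cip/Kip and INK4 families hold these kinases back. Mitotic genes are switched on later through a different promoter element, the cell cycle genes homology region (CHR), often next to CCAAT boxes. Thymocyte precursors divide rapidly under Notch and IL7 signals and after a functional T cell receptor beta chain is made, and leave the cycle before positive selection.

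The E2F and CHR elements differed in frequency between the replication genes and the mitotic ones in the reference sequence, without separating them fully. Windows of 300 bases (250 before to 50 after the start) were taken from RefSeq on GRCm38.p6 for 33 of the 40 members. The E2F motif was searched as TTTCGCGC, TTTGGCGC, TTTCCCGC or TTTGCCGC, the CHR as TTTGAA and the CCAAT box as CCAAT, each on both strands. An E2F match was found in 7 of 14 replication genes (Cdc6, Cdt1, E2f2, Mcm3, Mcm5, Mcm6 and Mcm7) and in 0 of 8 mitotic genes, against 2.6% of all 27025 genes in the table. A CHR match was found in 6 of 8 mitotic genes (Aurka, Bub1b, Cdc20, Mki67, Plk1 and Top2a) and in 2 of 14 replication genes, against 20.2% of all genes. Of the cyclins and kinases Cdk2 held an E2F match and Ccnb2 a CHR match among 7 genes, and of the 4 inhibitors Cdkn2a held an E2F match. CCAAT boxes were present in 9 of 14 replication genes, 7 of 8 mitotic genes and 41.1% of all genes. In 39 member windows 0 held both an E2F and a CHR match, and 1 pair of matches of different motifs overlapped, in Mcm7. Other cell cycle genes behaved alike in this count, with E2F matches in 11 of 36 replication genes and 3 of 38 mitotic genes, and CHR matches in 6 of 36 and 26 of 38. The promoters of Aurkb, Ccna2, Ccnd1, Ccnd2, Ccne2, Gmnn and Mcm4 are not shown.

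The promoters of 5 members are printed 5′ to 3′ on the strand of the gene, with E2F and CHR matches in capitals. Mcm6, a subunit of the replicative helicase (chr1:128359656-128359955, minus strand), and Cdc6, which loads that helicase (chr11:98907901-98908200, plus strand), stand for the E2F class. Top2a, the topoisomerase that untangles chromosomes (chr11:99024140-99024439, minus strand), and Mki67, the proliferation antigen that coats mitotic chromosomes (chr7:135716330-135716629, minus strand), each hold 2 CHR matches. Cdk6 (chr5:3343643-3343942, plus strand) is shown because its treatment ratio was the lowest of all members at 72 h relative to 24 h, and no match of either kind lies in its window.
Mcm6: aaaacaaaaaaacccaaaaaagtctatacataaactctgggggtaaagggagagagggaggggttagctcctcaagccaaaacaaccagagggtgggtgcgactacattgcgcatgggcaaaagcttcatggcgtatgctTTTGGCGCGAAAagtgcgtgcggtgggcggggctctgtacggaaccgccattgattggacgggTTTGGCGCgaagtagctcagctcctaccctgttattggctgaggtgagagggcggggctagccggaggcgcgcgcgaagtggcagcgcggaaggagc
Cdc6: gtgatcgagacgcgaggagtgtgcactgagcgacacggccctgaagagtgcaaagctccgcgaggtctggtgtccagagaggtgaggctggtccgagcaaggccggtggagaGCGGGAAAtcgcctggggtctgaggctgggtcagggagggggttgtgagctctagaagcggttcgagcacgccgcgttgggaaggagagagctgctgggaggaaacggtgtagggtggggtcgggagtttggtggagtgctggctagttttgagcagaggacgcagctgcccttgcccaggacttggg
Top2a: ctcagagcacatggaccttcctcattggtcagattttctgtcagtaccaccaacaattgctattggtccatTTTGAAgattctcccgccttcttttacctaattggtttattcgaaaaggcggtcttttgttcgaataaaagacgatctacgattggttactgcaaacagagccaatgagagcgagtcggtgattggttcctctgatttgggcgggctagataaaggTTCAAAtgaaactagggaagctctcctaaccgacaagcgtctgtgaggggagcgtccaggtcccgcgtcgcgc
Mki67: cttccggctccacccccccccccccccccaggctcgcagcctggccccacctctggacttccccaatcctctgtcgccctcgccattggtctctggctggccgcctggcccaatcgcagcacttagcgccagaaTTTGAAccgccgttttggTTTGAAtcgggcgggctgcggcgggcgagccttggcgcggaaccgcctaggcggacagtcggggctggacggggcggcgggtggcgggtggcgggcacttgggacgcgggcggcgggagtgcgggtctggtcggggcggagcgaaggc
Cdk6: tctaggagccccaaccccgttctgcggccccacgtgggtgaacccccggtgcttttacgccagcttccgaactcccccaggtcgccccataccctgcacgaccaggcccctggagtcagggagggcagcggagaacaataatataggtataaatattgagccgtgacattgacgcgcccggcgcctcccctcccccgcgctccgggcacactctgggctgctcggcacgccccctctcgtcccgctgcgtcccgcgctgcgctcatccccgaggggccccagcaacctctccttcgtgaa
In Mcm6 the capitals form 2 separate sites, the farther of them starting 110 bases before the start, and in Cdc6 the single match starts 138 bases before it. The CHR matches begin 179 and 23 bases before the start in Top2a, which also has 6 CCAAT boxes, and 116 and 98 bases before it in Mki67, which has 3. A match describes letters in the window and not a bound site.

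**Figure D1:**
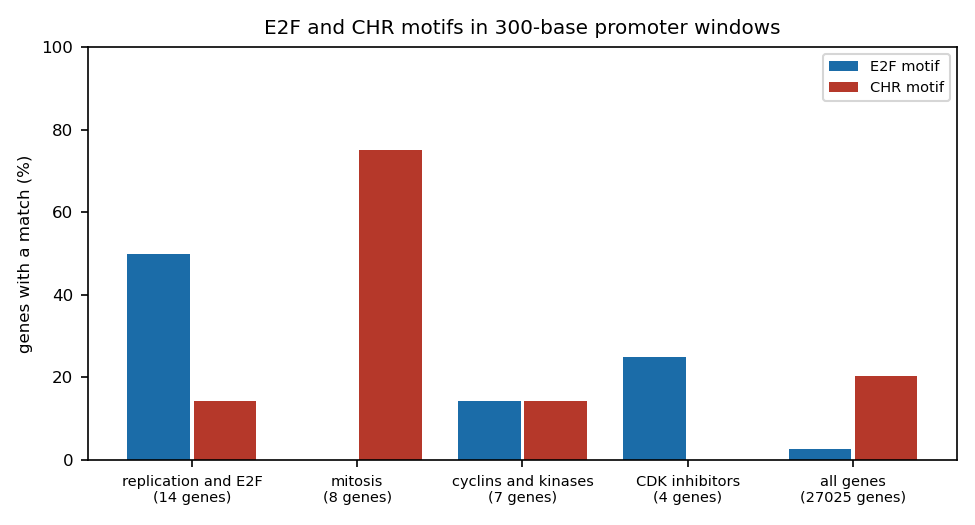
Share of genes (%, y axis) whose 300-base promoter window held an E2F motif (blue) or a CHR motif (red), for the 4 groups of members and for all genes. E2F matches reach 50.0% in the replication group and CHR matches 75% in the mitotic group, against 2.6% and 20.2% of all genes.

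In all 3 kinds of culture nearly all of these genes lay within 1.5-fold of the untreated cells after pAsc. In stromal cells 0 of 40 members were at least 2-fold higher, against 0.439% of 14348 measured genes, and 0 were at least 2-fold lower, against 0.118%. In T cells at 72 h 0 of 39 measured members were 2-fold higher, against 0.227% of 16315 genes, and 0 were 2-fold lower, against 0.38%. In T cells at 24 h the counts were again 0 of 39 each way, against 0.329% and 0.0118% of 17001 genes. At these background shares a list of this size would hold few or no called genes. Cdkn2a was the member not measured in T cells. The median log2 ratio of the members was 0.15 in stromal cells, −0.00 in 72 h T cells and 0.04 in 24 h T cells, beside 0.02, 0.01 and 0.02 over all measured genes. These ratios are relative to genes of like brightness, because loess removes any shift that goes with brightness. With median centring of each array on all probes instead, the median of all measured genes was 0.64, 0.54 and 0.41. Such medians place most measured genes above 0, and their share above 0 was not counted under this centring. Nearly every member lay above 0 as well (39 of 40, 39 of 39 and 39 of 39). The members' median was 0.30, 0.23 and 0.19 above that of all genes. The signs given for single genes hold for loess.

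Under the 1.5-fold rule 5 ratios stood out, on 2 of the arrays. In stromal cells 1 member was higher (E2f2), against 2.21% of genes, and 1 was lower (Ccnd2), against 2.78%. In T cells at 72 h 1 member was higher (Ccne2), against 1.98%, and 2 were lower (Cdk6 and Cdk4), against 1.93%. In T cells at 24 h 0 members passed either way, against 3.28% higher and 0.229% lower. These are counts of 0 to 2 genes, too few to set apart from the background shares. With median centring on all probes in place of loess the 3 lower genes changed sign, to 0.37 for Ccnd2, 0.33 for Cdk6 and 0.21 for Cdk4, and with centring on measured genes E2f2 was the only one of the 5 still past 1.5-fold.

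**Figure D2:**
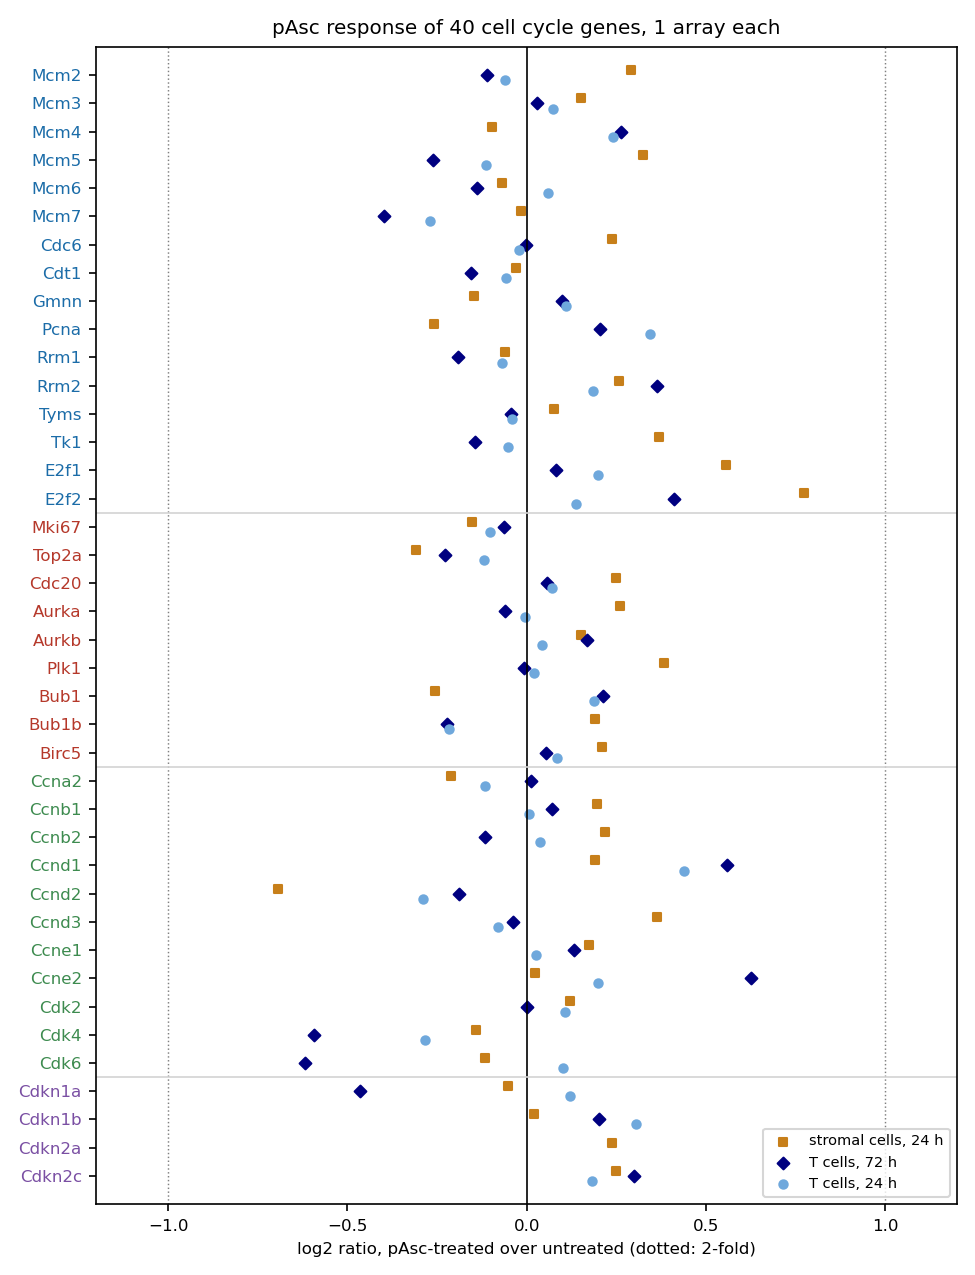
Treatment log2 ratio (treated over untreated, x axis) of each member (y axis, ordered by group) in stromal cells at 24 h, 72 h and 24 h T cells, from 1 array each. No point reaches the 2-fold rule, and E2f2 (0.77) and Ccnd2 (−0.69) in stromal cells lie farthest from 0.

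The replication genes showed no common direction with pAsc. Of the 16, 9 lay above 0 in stromal cells, 7 in 72 h T cells and 8 in 24 h T cells, with medians of 0.11, −0.02 and 0.02. Over all measured genes 53.4%, 51.1% and 54.8% lay above 0 on these arrays. The helicase subunits Mcm2 to Mcm7, which form 1 complex, moved apart: in T cells at 72 h Mcm4 was at 0.26 while Mcm7 was at −0.40 and Mcm5 at −0.26, and the others lay between. At 24 h the range of the 6 ran from Mcm7 at −0.27 to Mcm4 at 0.24, and in stromal cells from Mcm4 at −0.10 to Mcm5 at 0.32. Mcm7 had a log2 level of 13.91 in treated and 14.30 in untreated T cells at 72 h, and of 14.40 in treated and 14.67 in untreated T cells at 24 h. The order of the subunits was thus not shared between stromal cells and T cells.

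Pcna, the sliding clamp of the replication fork, lay on opposite sides in the 2 cell types. Its level was 13.24 in treated and 13.50 in untreated stromal cells, 15.28 in treated and 15.08 in untreated T cells at 72 h, and 15.72 in treated and 15.38 in untreated T cells at 24 h. The log2 ratios were −0.26, 0.20 and 0.34, each with an SD of 0.04 to 0.05 between the spots of its probe. The 24 h value is not firm, since it was 0.10 with the Agilent log ratio, and bright genes as a class sat slightly above 0 on that array (median 0.11 over 787 genes above a brightness of 14, against −0.02 with the Agilent ratio). Rrm2, the regulated subunit of ribonucleotide reductase, was at 0.26 in stromal cells, 0.36 in 72 h T cells and 0.19 in 24 h T cells. The other nucleotide genes were near 0 in T cells, with Tyms (thymidylate synthase) at −0.04 at both times and Rrm1, the large reductase subunit, at −0.19 and −0.07, while Tk1 (thymidine kinase) was at 0.37 in stromal cells.

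The licensing factors lay between −0.16 and 0.11 in T cells. Cdc6 was at 0.24 in stromal cells, where its other probe read 0.41, −0.00 in 72 h T cells and −0.02 in 24 h T cells. Cdt1, which works with Cdc6 in loading the helicase, was at −0.03, −0.16 and −0.06 in the same order, and Gmnn (geminin), the inhibitor of Cdt1, was at −0.15, 0.10 and 0.11.

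E2f2 had the highest ratio of all members in stromal cells. E2f2 encodes an activating E2F factor, and its level was 9.37 in treated and 8.59 in untreated stromal cells (ratio 0.77, a fold of 1.71), 12.54 in treated and 12.13 in untreated T cells at 72 h, and 12.74 in treated and 12.61 in untreated T cells at 24 h. The treated sample was the higher on all 3 arrays, by 0.41 at 72 h and 0.14 at 24 h. The stromal value rests on 1 probe and was 0.95 with the Agilent log ratio. E2f1, the best known activator of the family, gave probes that disagreed. Its brighter probe read 0.56, 0.08 and 0.20 in stromal cells, 72 h and 24 h T cells. The dimmer probe, averaged over 10 spots, read −0.10, −0.41 and −0.40. Both probes lie within a short stretch of the gene on mm9 (chr2:154386004-154386063 for the brighter and chr2:154385742-154385801 for the dimmer). The direction of E2f1 is therefore not settled on any of the 3 arrays.

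The mitotic genes likewise showed no shift shared by all. Of 9 genes, 6 lay above 0 in stromal cells, 4 in 72 h T cells and 5 in 24 h T cells, with medians of 0.19, −0.01 and 0.02. Plk1, the kinase that drives mitotic entry, was at 0.38 on the stromal array but at −0.01 and 0.02 in T cells at 72 h and 24 h. By its brightest probe Top2a was below 0 on each array, with levels of 8.95 in treated and 9.26 in untreated stromal cells, 11.71 in treated and 11.94 in untreated T cells at 72 h, and 12.46 in treated and 12.57 in untreated T cells at 24 h. These differences (−0.31, −0.23 and −0.12) lie within the largest range found between probes of 1 member, which was 0.65, 0.55 and 0.60 on these arrays. Another Top2a probe read −0.24 in stromal cells, −0.45 at 72 h and −0.01 at 24 h. A further probe, measured only at 24 h, read 0.11, so no direction can be given for Top2a at that time. Mki67 was at −0.15, −0.06 and −0.10, and its 2 probes differed by little. By the brightest probe the spindle checkpoint kinases Bub1 and Bub1b lay on opposite sides of 0 in T cells. Bub1 was at 0.21 (72 h) and 0.19 (24 h), and Bub1b, on 1 probe, at −0.22 at both times. The other probe of Bub1 read only 0.05 at 72 h and 0.08 at 24 h. In stromal cells the probes of Bub1 read −0.25 and 0.30, so that no direction can be given there. Cdc20, Aurka, Aurkb and Birc5, which act at the anaphase switch and on the spindle, were between 0.15 and 0.26 in stromal cells and between −0.06 and 0.17 in T cells.

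Among the cyclins the D types differed from each other. Ccnd2, the cyclin D that many progenitors use, was the lowest member in stromal cells, with levels of 13.25 in treated and 13.94 in untreated stromal cells, 13.58 in treated and 13.77 in untreated T cells at 72 h, and 13.66 in treated and 13.95 in untreated T cells at 24 h. Treated cells were the lower on each array, by −0.69 (a fold of 1.62), −0.19 and −0.29, and the 3 probes of the gene read −0.69 to −0.58 in stromal cells. Ccnd1, a cyclin D of adherent cells, went the other way, and had levels of 13.05 in treated and 12.86 in untreated stromal cells, 11.54 in treated and 10.98 in untreated T cells at 72 h, and 10.04 in treated and 9.60 in untreated T cells at 24 h. Its ratios of 0.56 at 72 h and 0.44 at 24 h were the 2nd highest and the highest of the members in T cells, with an SD of 0.05 and 0.07 between 10 spots. Ccnd3, the cyclin D of cycling thymocytes, was at 0.36 in stromal cells, −0.04 in 72 h T cells and −0.08 in 24 h T cells.

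The higher Ccnd1 signal in treated T cells came with a higher signal of stromal genes. At 72 h 13 of 15 measured stromal markers were above 0 with a median of 0.52, and at 24 h 14 of 14 with a median of 0.69. The log2 of the summed signal of the 16 stromal markers was 18.8 in treated and 18.2 in untreated T cells at 72 h, and 17.7 in treated and 16.9 in untreated T cells at 24 h, against 19.2 in treated and 18.9 in untreated stromal cells. Dcn was the only stromal marker not above background at 72 h (untreated), and at 24 h Dcn (both channels) and Lum (untreated) were not. The part of stromal RNA in the Ccnd1 value was not tested, and in bulk RNA fewer cells of a type and less RNA per cell cannot be told apart.

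Ccne2, a cyclin E that is made at the start of DNA synthesis, had the highest ratio of the members at 72 h. Its level was 6.73 in treated and 6.71 in untreated stromal cells, 7.85 in treated and 7.23 in untreated T cells at 72 h, and 8.06 in treated and 7.86 in untreated T cells at 24 h. The ratio at 72 h was 0.62 (a fold of 1.54), and the other probe of the gene read 0.34. The median of the probes (0.48) was short of 1.5-fold, as was the value with loess followed by a running median (0.58). Ccne2 is dim, and at 72 h the value grew to 0.74 with the Agilent log ratio and to 0.83 without the offset that damps dim genes. Ccne1, the other cyclin E, was at 0.17, 0.13 and 0.02 in stromal cells, 72 h and 24 h T cells. The S phase and mitotic cyclins Ccna2, Ccnb1 and Ccnb2 lay between −0.12 and 0.07 in T cells at both times, and Ccna2 was at −0.21 in stromal cells.

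The cyclin D kinases Cdk6 and Cdk4 were the 2 lowest members in T cells at 72 h. Cdk6, the cyclin D kinase that is abundant in lymphoid precursors, had levels of 10.89 in treated and 11.01 in untreated stromal cells, 14.18 in treated and 14.80 in untreated T cells at 72 h, and 15.47 in treated and 15.37 in untreated T cells at 24 h. The lower level in treated cells was present at 72 h (−0.62, a fold of 1.53) and not at 24 h (0.10). All 3 probes of Cdk6 were below 0 at 72 h, at −0.62, −0.51 and −0.27, against 0.10, −0.10 and −0.10 at 24 h, and the median of the probes at 72 h (−0.51) was short of 1.5-fold. The brightest of them lies at chr5:3529287-3529346 on mm9. Cdk4 had levels of 13.31 in treated and 13.45 in untreated stromal cells, 12.53 in treated and 13.12 in untreated T cells at 72 h, and 12.57 in treated and 12.85 in untreated T cells at 24 h. Treated cells were lower in each culture, by −0.14, −0.59 (a fold of 1.51) and −0.28, on 1 probe. At 72 h the value was −0.53 with the Agilent log ratio and −0.56 with loess followed by a running median, both short of 1.5-fold. Cdk2, the partner of cyclin E, was dim and at 0.12, −0.00 and 0.11.

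Some markers of other blood cells were also lower on the 72 h array. Of the B lineage markers 3 of 6 measured were 2-fold lower in treated T cells and 1 lay above 0 (median −0.62). Of the myeloid and mast cell markers 3 of 5 were 2-fold lower and 2 lay above 0 (median −1.27). Of the T lineage markers 4 of 16 lay above 0 (median −0.13), and of 2 measured erythroid markers 1 did (median 0.09). At 24 h the medians were 0.17 for B lineage, −0.16 for myeloid and mast cell and −0.08 for T lineage markers, with 0 past 2-fold. The log2 of the summed signal of 8 B lineage markers was 11.9 in treated and 12.5 in untreated T cells at 72 h, and 14.8 in treated and 14.6 in untreated T cells at 24 h. That of 10 myeloid and mast cell markers was 11.1 in treated and 12.8 in untreated T cells at 72 h, and 13.4 in treated and 13.6 in untreated T cells at 24 h. Pax5 and Cd79a were not above background at 72 h, nor Pax5 in untreated T cells at 24 h, and Elane, Itgam and Ms4a2 were not at either time. At 72 h Mcpt8 was also not above background in treated and Fcer1a in untreated T cells. The part of these cells in the values of Cdk6, Cdk4, Ccne2 and Cdkn1a was not tested.

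Of the inhibitors, Cdkn1a differed most between the 2 times. Cdkn1a encodes the Cip/Kip inhibitor induced by p53, and its level was 12.00 in treated and 12.05 in untreated stromal cells, 9.28 in treated and 9.74 in untreated T cells at 72 h, and 9.81 in treated and 9.69 in untreated T cells at 24 h. The ratios were −0.05, −0.47 and 0.12, with an SD of 0.02 to 0.06 between 10 spots. Cdkn1b, the Cip/Kip inhibitor of quiescent cells, was at 0.02, 0.20 and 0.30 by its brightest probe, but at 72 h another probe read −0.34. Cdkn2c, an INK4 inhibitor of Cdk4 and Cdk6, was at 0.25, 0.30 and 0.18, and its probes gave 0.30 and 0.29 at 72 h. Cdkn2a, which encodes an INK4 inhibitor and the p53 activator Arf, was at 0.24 in stromal cells. It was not above background in T cells at 24 h, treated or untreated, nor in untreated T cells at 72 h.

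**Figure D3:**
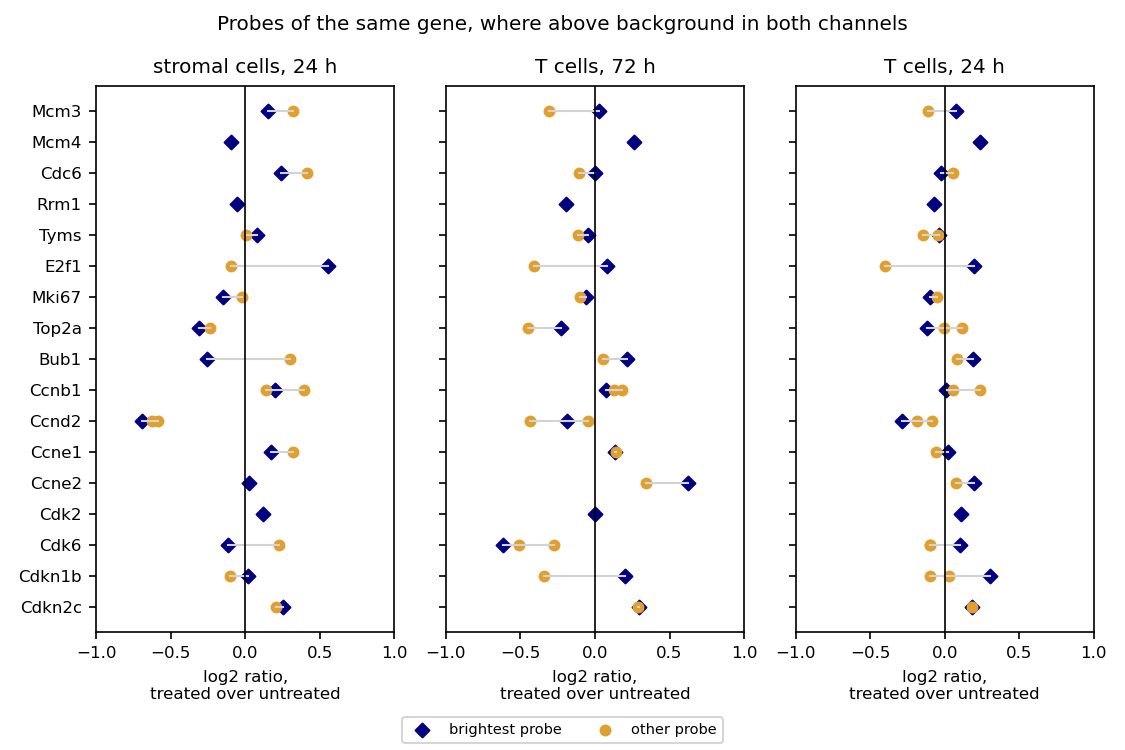
Treatment log2 ratio (treated over untreated) of every measured probe of the members with several probes, in stromal cells at 24 h, 72 h and 24 h T cells. The 3 Ccnd2 probes lie together in stromal cells (−0.69 to −0.58), while the probes of E2f1 lie on both sides of 0 in each panel.

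Where a member had several measured probes, they shared a sign for 9 of 13 members in stromal cells, 11 of 14 in 72 h T cells and 7 of 14 in 24 h T cells. The range between the probes of a member had a median of 0.15, 0.19 and 0.16 on these arrays. No member had probes of opposite sign with 1 of them past 1.5-fold.

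The change in response between 72 h and 24 h was small as well. The difference of the ratios, 72 h minus 24 h, was at least 2-fold higher in 0 of 39 members, against 0.19% of 15798 genes, and 2-fold lower in 0, against 0.373%. At 1.5-fold it was higher in 0, against 0.918%, and lower in 2 (Cdk6 and Cdkn1a), against 2.6%. Cdk6 was lowest at −0.72, with −0.62 at 72 h and 0.10 at 24 h, and its 3 probes gave −0.72 to −0.18. It was short of 1.5-fold with the Agilent log ratio (−0.54), with a running median over brightness subtracted (−0.48) and with the median over probes (−0.41). Cdkn1a lay on the edge of the rule and missed it with that running median (−0.58) and with median centring on measured genes (−0.56) or on all probes (−0.44). Cdkn1a was at −0.59, Cdk4 at −0.31, Mcm6 at −0.20 and Ccnb2 at −0.15. The highest differences were Ccne2 at 0.42, E2f2 at 0.27, Rrm2 at 0.18, Ccna2 at 0.13 and Aurkb at 0.13. Members as a whole had a median of −0.03, the same as all genes. The 2 arrays hold cultures of different age, so that time of treatment and day of culture cannot be told apart.

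Stromal cells and T cells differed little in their ratios at 24 h. The difference of the ratios, stromal cells minus T cells, was 2-fold higher in 0 of 39 members, against 0.378% of 13770 genes, and 2-fold lower in 0, against 1.37%. At 1.5-fold E2f2 was higher (0.64), against 2.03% of genes, and Pcna was lower (−0.60), against 7.73%. Ccnd3 (0.44), Mcm5 (0.44), Tk1 (0.42) and Bub1b (0.41) came after E2f2, and Bub1 (−0.44), Ccnd2 (−0.41), Mcm4 (−0.34) and Cdkn1b (−0.28) after Pcna. The Pcna difference was −0.31 and that of E2f2 0.83 with the Agilent log ratio. Pcna was short of 1.5-fold in 5 of the alternatives (−0.54 to −0.31), and E2f2 with median centring on all probes (0.57) or on measured genes (0.38).

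The cell types themselves differed far more than the treatment moved them. In untreated cells 25 of 39 members were lower by at least 2-fold in stromal cells relative to T cells at day 14, against 15.6% of 13873 genes, and 2 were 2-fold higher (Ccnd1 and Cdkn1a), against 24.7%. At 1.5-fold 30 were lower, against 23.5%, and 3 higher, against 36.4%, and 34 of 39 lay below 0, against 40.1%. The median difference, stromal minus T, was −1.57 for the members and 0.26 for all genes. In the replication group 13 of 16 genes were 2-fold lower (median −1.71) and 0 were higher. Of the mitotic genes 6 of 9 were 2-fold lower, with a median of −1.68, and of the cyclins and kinases 6 of 11, with a median of −1.02. The inhibitors did not share this: 0 of 3 were 2-fold lower, with a median of 0.14. The 2 samples lie on different arrays, so cell type and array cannot be told apart.

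Mki67 differed most, at a level of 10.15 in untreated stromal cells and 14.67 in untreated T cells at day 14 (a difference of −4.52, or 22.9-fold), and its other probe gave −4.48. Cdk6 was at 11.01 in untreated stromal cells and 15.37 in untreated T cells (−4.37, or 20.6-fold), with its probes between −4.37 and −1.56. E2f2 was at 8.59 in untreated stromal cells and 12.61 in untreated T cells (−4.01, or 16.1-fold). These 3 genes were the only members more than 10 times lower in stromal cells. Top2a followed at −3.32, with another probe at −1.21, and then Bub1 at −2.81, whose probes ranged to −0.01. Ccna2 (−2.75), Gmnn (−2.45), Bub1b (−2.10), Cdc6 (−2.07), Ccnb2 (−1.96), Pcna (−1.88), Rrm2 (−1.76), Cdt1 (−1.70) and Birc5 (−1.68) came next. Nearest to the rule, among those past it, were Aurkb (−1.23), Ccne2 (−1.15), Tyms (−1.14) and Ccnb1 (−1.02). By the brightest probe the 6 Mcm genes ranged from −2.12 (Mcm5) to −1.49 (Mcm6), but the other probe of Mcm3 gave −2.68. The mitotic genes spread more widely by the brightest probe, with Plk1 at −0.60 and Aurka at −0.78.

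Each cell type sample showed another cyclin D and kinase at its higher level. The log2 of the summed signal of the 16 stromal markers was 16.9 in untreated T cells at 24 h (day 14) and 18.9 in untreated stromal cells. The part of stromal RNA in the T cell levels was not tested. Ccnd1 was at 12.86 in untreated stromal cells and 9.60 in untreated T cells at day 14 (3.26, or 9.57-fold), while Ccnd3 was at 11.05 in untreated stromal cells and 12.67 in untreated T cells (−1.62). Ccnd2 was nearly the same in both by this scaling, at 13.94 in untreated stromal cells and 13.95 in untreated T cells. With the Agilent processed signal it was higher in stromal cells by 0.65, so its standing depends on the scaling. Cdk4 was at 13.45 in untreated stromal cells and 12.85 in untreated T cells (0.60), opposite in direction to Cdk6. Cdkn1a was at 12.05 in untreated stromal cells and 9.69 in untreated T cells (2.36, or 5.13-fold), while Cdkn2c (0.14), E2f1 (0.06) and Cdk2 (−0.16) lay near 0. Cdkn2a, not above background in T cells, was at least 3.15-fold higher in untreated stromal cells than in day 14 T cells without pAsc, measured against its own dim signal there.

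**Figure D4:**
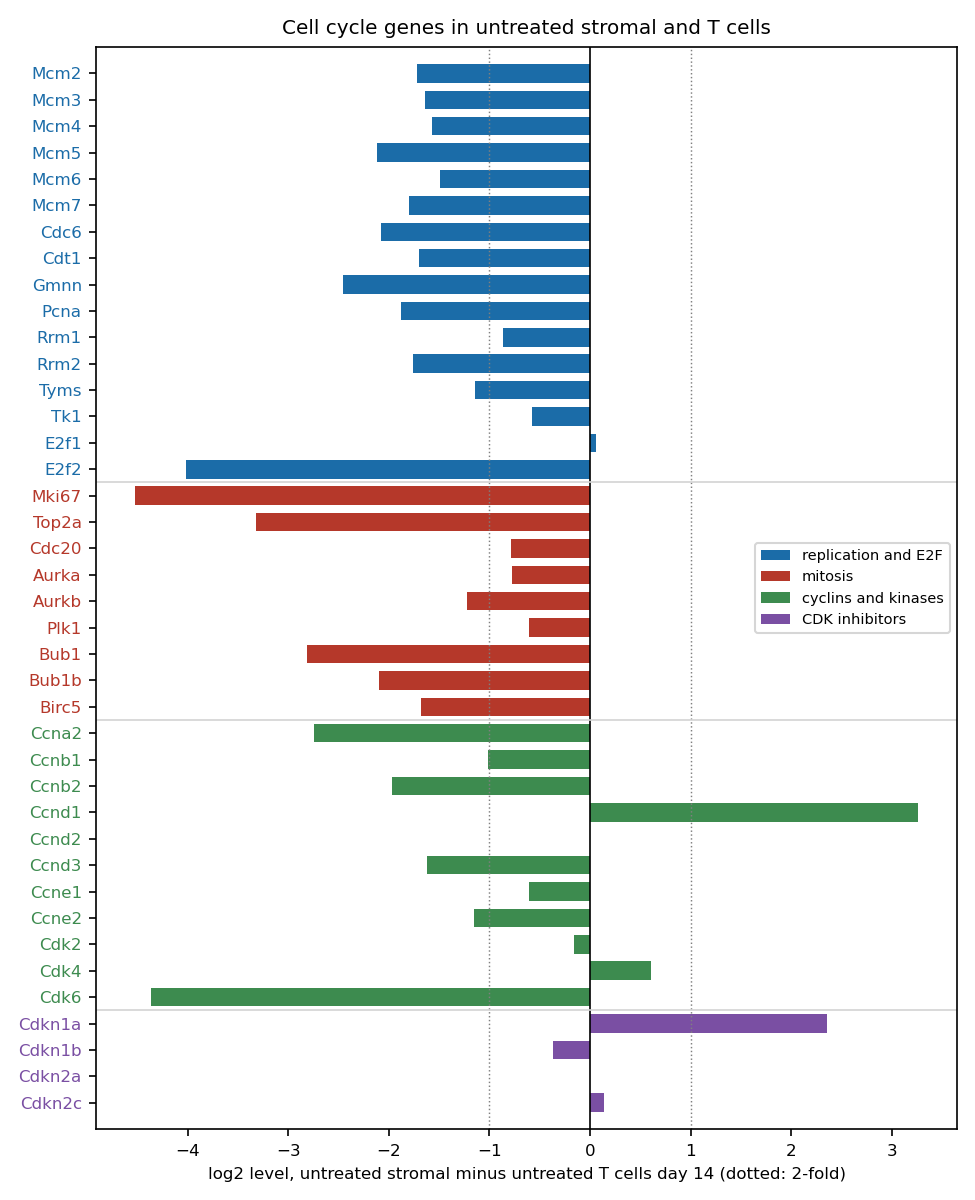
Difference in log2 level between untreated stromal cells and untreated T cells at day 14 (stromal minus T cells, x axis) for each member (y axis), from the Cy3 channel of 1 array each. Most bars point to the left, farthest for Mki67 (−4.52) and Cdk6 (−4.37), while Ccnd1 (3.26) and Cdkn1a (2.36) point to the right, and Cdkn2a has no bar because it was not above background in T cells.

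At day 17 most of these genes were slightly lower in T cells than at day 14, with or without pAsc. In pAsc-treated T cells 35 of 39 members lay below 0 for day 17 minus day 14, against 50.8% of 16934 genes, and in untreated T cells 34 of 39, against 50.3% of 15904 genes. The medians were −0.38 in treated and −0.34 in untreated T cells, beside −0.01 and −0.00 over all genes. At least 2-fold differences were few: 1 member higher (Ccnd1) and 1 lower (Cdk6) in treated cells, against 6.8% and 5.37% of genes, and 1 higher (Ccnd1) and 1 lower (Cdc6) in untreated cells, against 7.65% and 3.65%. At 1.5-fold 7 members were lower in each, against 13.5% of genes in treated cells and 11.5% in untreated cells, and 1 was higher in each, against 14.8% in both. The shift was thus one of many genes by a small amount. At 1.5-fold the share of members lower was somewhat above that of all genes, and the share higher was well below it.

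All 16 replication genes were below 0 in both treated and untreated cells, with medians of −0.45 and −0.37, and this count was the same under each scaling tried. Cdc6 was farthest, with levels of 9.60 at day 17 and 10.58 at day 14 in treated T cells (−0.98) and of 9.60 at day 17 and 10.61 at day 14 in untreated T cells (2.00-fold lower). Only its brighter probe was that low in untreated cells, the other being at −0.22, and the median over both (−0.61) was short of 2-fold. Cdt1 was at −0.69 in treated and −0.59 in untreated cells, Mcm5 at −0.63 and −0.49, and Rrm2 at −0.46 and −0.64. Of the mitotic genes 7 of 9 were below 0 in each, led by Top2a (−0.74 in treated and −0.63 in untreated cells) and Bub1 (−0.60 and −0.63), while Aurka (0.07 and 0.13) and Plk1 (0.03 and 0.06) were not. Among the cyclins Ccna2 was at −0.64 in treated and −0.76 in untreated cells, and Ccne2 at −0.21 and −0.63.

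Cdk6 was lower at day 17 in both kinds of culture and more so with pAsc. Its level was 14.18 at day 17 and 15.47 at day 14 in treated T cells (−1.29, or 2.44-fold) and 14.80 at day 17 and 15.37 at day 14 in untreated T cells (−0.57). Its 3 probes lay between −1.75 and −1.22 in treated and between −1.34 and −0.57 in untreated cells. By the median over probes the values were nearer, at −1.29 in treated and −1.04 in untreated cells. The gap between treated and untreated cells is the same quantity as the difference of the ratios, 72 h minus 24 h, and adds nothing to it. The treated cultures also differed in length of exposure. Cdk4 did not follow, at −0.04 in treated and 0.27 in untreated cells, and Ccnd3 (0.01 and −0.03) and Ccnd2 (−0.08 and −0.18) were nearly level. Cdkn1a was at −0.53 in treated and 0.05 in untreated cells, and Cdkn1b at −0.52 and −0.42.

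Ccnd1 was the exception, being 2-fold higher at day 17. Its level was 11.54 at day 17 and 10.04 at day 14 in treated T cells (2.83-fold) and 10.98 at day 17 and 9.60 at day 14 in untreated T cells (1.38, which is 2.61-fold). Stromal markers were higher at day 17 too: 15 of 15 measured in treated cells (median 1.23) and 14 of 14 in untreated cells (median 1.66). T lineage markers had 8 of 16 above 0 in each. B lineage markers were 2-fold lower at day 17 in 5 of 6 measured in each (medians −2.86 in treated and −1.97 in untreated cells). Myeloid and mast cell markers were 2-fold lower in 3 of 6 in treated cells (median −1.19) and in 1 of 6 in untreated cells (median −0.65). The part of stromal, B lineage and myeloid cells in the Ccnd1 value and in the lower level of the other members was not tested. Both comparisons rest on the same 2 arrays, and culture day and array cannot be told apart.

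**Figure D5:**
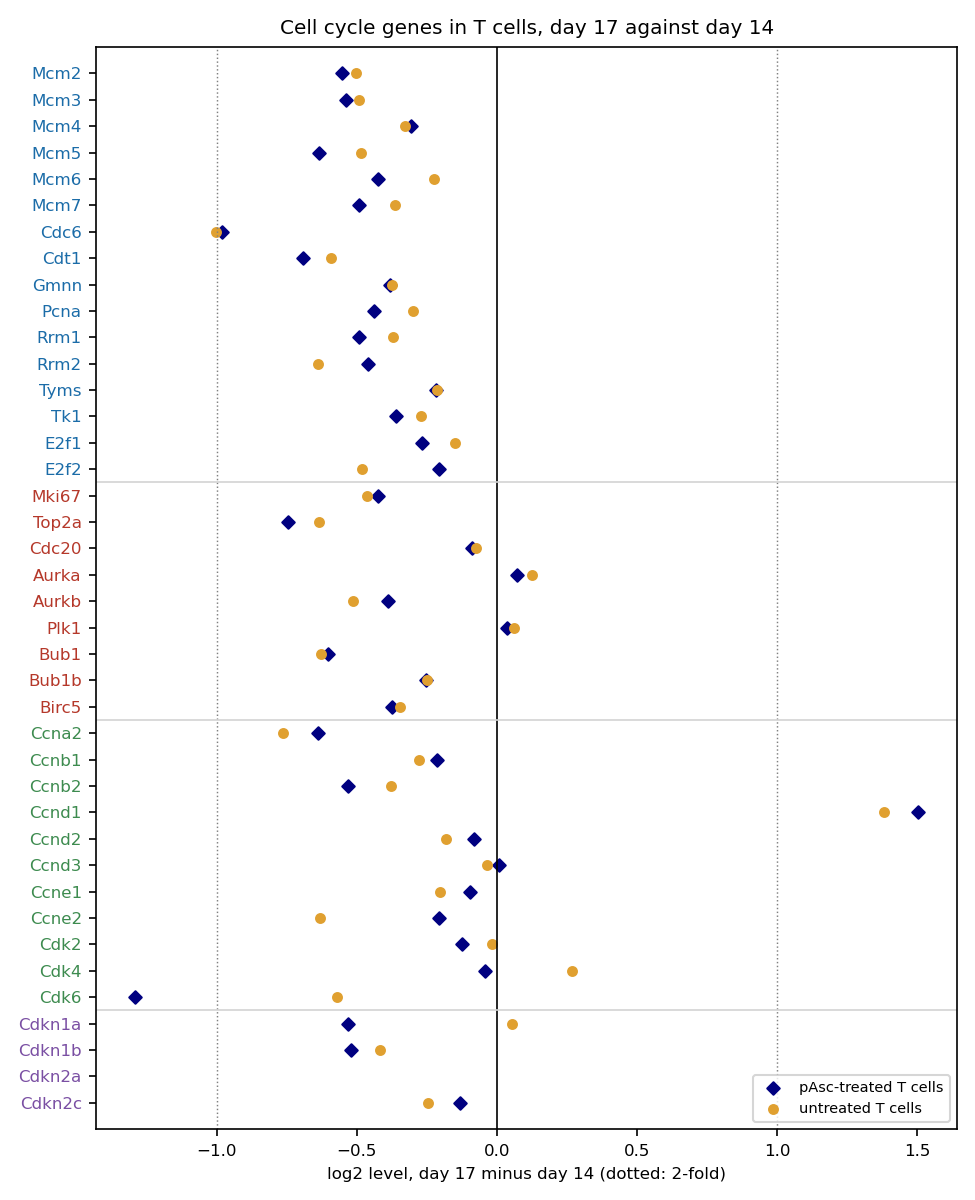
Difference in log2 level between day 17 and day 14 (day 17 minus day 14, x axis) for each member (y axis) in pAsc-treated and untreated T cells, from 1 array per day. Most points lie between −0.8 and 0, Cdc6 and treated Cdk6 lie lower, and Ccnd1 (2.83-fold treated, 2.61-fold untreated) lies alone on the right.

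A broader list of 121 other cell cycle genes (43 of replication, 44 of mitosis and 34 regulators) was read in the same way. With pAsc 0 were 2-fold changed on any of the 3 arrays, against 0.0118% to 0.439% of all measured genes in 1 direction, and the medians were 0.02 in stromal cells, 0.01 in 72 h T cells and −0.00 in 24 h T cells. In stromal cells the highest were Mybl2 (0.63), Pold2 (0.63), E2f7 (0.62) and Chaf1a (0.52), and the lowest Ccng1 (−0.75), Orc4 (−0.55), Spc25 (−0.53) and Gadd45a (−0.53). At 72 h in T cells E2f7 (0.87), a repressive E2F factor, and Anln (0.77), the anillin of the cleavage furrow, were the highest, followed by Cenpf (0.47) and Cdkn1c (0.37). Smc2 (−0.61), a condensin subunit, was the lowest there, but its probes reached 0.23, and Tfdp2 (−0.46), Rpa2 (−0.43) and Cdc25a (−0.41) followed. At 24 h the range ran from Cdc25b (−0.45), Cdca7 (−0.32), Rfc2 (−0.28) and Rpa2 (−0.28) to Gins4 (0.23), Chek1 (0.28), Ccng2 (0.32) and Trp53 (0.34).

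In the differences of the ratios, 72 h minus 24 h, E2f7 (0.80) and Anln (0.64) were again highest, and Smc2 (−0.55) and Tfdp2 (−0.51) lowest. The list was likewise lower at day 17 than at day 14, with 101 of 121 genes below 0 in treated T cells (median −0.32), against 50.8% of all genes, and 109 of 121 in untreated T cells (median −0.36), against 50.3%. Orc1, a subunit of the origin recognition complex, was at −1.41 in treated and −1.29 in untreated cells, and Fbxo5, an inhibitor of the anaphase-promoting complex, at −1.43 and −1.11. Cdkn2b, an INK4 inhibitor, was the highest at 1.42 in treated and 1.32 in untreated cells. In untreated stromal cells 71 of 119 measured genes of the list were 2-fold lower, against 15.6% of all genes, and 3 were 2-fold higher, against 24.7%, relative to day 14 T cells without pAsc (median −1.37). Cdkn2b was again the highest at 3.51, and Smc4 (−4.72), Cenpe (−4.38), Cenpf (−3.85) and Nusap1 (−3.63) were the lowest.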

How the data were processed

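The authors deposited the intensity of each spot, as a mean signal and a median local background for either dye, without normalization (Agilent Feature Extraction, version 10.5.1.1, per the file headers). The deposited processed signals were background-subtracted, detrended and dye-normalized per the file headers, and the deposited log10 ratio is their Cy5 over Cy3, turned to log2 here for an alternative. The 3 arrays came from 1 slide, scanned in 1 run.

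From the mean and background signals, log2 ratios were obtained in R 4.3.3 by limma 3.58.1: normexp with an offset of 50, then loess (span 0.3) within each array, with control spots and outlier-flagged spots (117 to 130 per array) at weight 0 and then left out. 0 spots were saturated. Aquantile scaling put single channels on 1 scale, and levels were compared within 1 dye. Spots of a probe were averaged, and a gene took its probe of highest mean brightness. Genes counted as measured had a share of 0.5 or more of their spots well above background in the channels compared. The offset shrinks the ratios of dim genes. Of the 41174 probes, 25035 were named through RefSeq accessions, 6330 by symbol, 1639 by synonym and 8107 by the name in the file, and the 63 member probes by the array's gene name. Probe positions are on mm9 per the file headers. The lower bound of Cdkn2a is open to dye bias.

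The rule for the members reads gene names only, but the members, the lists and the alternatives were drawn up with earlier results of these data known. The text names every member past 2-fold, the 5 highest and 5 lowest members of each comparison and up to 4 of the other cell cycle genes in each direction, with the remaining members given by role. The number of arrays limits the precision. Nothing says whether treated and untreated cultures were started separately. Only the background and loess steps were run on simulated arrays, and recovery of the set ratios was required only without the offset. Scaling between channels and the choice of probe were not covered. Lists, counts and motifs were handled in Python 3.11.15 (numpy 2.4.6, pandas 2.3.3).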

Additional observations from a re-analysis of the deposited data

How the results depend on the processing

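Of 190 summary values computed under other settings, 168 moved by less than the spread between probes of a gene (for counts, by no more than 1.5 times) and 22 moved by more. Of 60 medians among them 8 had the other sign, all for T cells at 24 h, at 72 h or 72 h minus 24 h, where the medians given lie within 0.04 of 0. No paired analysis was possible because each group had 1 array. The choice that moved most was loess. With median centring on all probes in its place, the members' median ratio was 0.95 in stromal cells, 0.77 in 72 h T cells and 0.61 in 24 h T cells. It was 0.15 for 72 h minus 24 h and 0.31 for stromal cells minus T cells. On the 3 arrays 16, 8 and 2 members were then at least 2-fold higher. All measured genes shifted too, with medians of 0.64, 0.54 and 0.41. Their share past 2-fold was not counted under this centring, so the 3 counts cannot be read as particular to the members. With centring on measured genes the medians were 0.40, 0.28 and 0.24. Members are bright, with a median log2 brightness of 11.6, 12.5 and 12.6 against 9.58, 9.74 and 9.37 for measured genes, and loess removes what goes with brightness. Under the 1.5-fold rule 1 member was higher and 1 lower in stromal cells, 1 higher and 2 lower in T cells at 72 h, 2 lower for 72 h minus 24 h, and 1 higher and 1 lower for stromal cells minus T cells. For day 17 minus day 14, 2 members were 2-fold lower in treated T cells without the offset, and 2 in untreated T cells with the Agilent processed signal. Without Ccnd1 and Cdkn1a, an alternative added after seeing the data, 0 were 2-fold higher in either. That count was fixed by the choice, since Ccnd1 was the only member 2-fold higher, and it shows nothing further. The members' median stood below that of all genes by −0.38 to −0.30 in treated and −0.37 to −0.34 in untreated T cells for day 17 minus day 14, and by −1.97 to −1.52 for stromal cells minus T cells, under each of the settings for scaling and background. With 1 array per comparison, a difference of the size seen here may lie within the spread between cultures, which was not measured.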
